A study of Mus musculus with 2 samples.

Results

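The visual cycle genes Rlbp1, Rdh5, Rdh10, Rdh11, Rpe65, Lrat, Rgr and Stra6 were followed across the cells of the embryonic mouse eye cup, in a control and in a conditional mutant of the transcription factor gene Myrf. The genes were chosen by symbol, and all 8 were found among the 31053 genes of both count tables. Single-cell RNA sequencing was performed at e15.5 on 1 library per genotype, each made from 3 pooled eye cups from which cornea, lens and optic nerve had been taken off. Control embryos were Myrf fl/fl, with both Myrf alleles flanked by loxP. Mutant embryos were Rx>cre Myrf fl/fl and carried in addition a Cre transgene under Rx regulatory sequence, which acts in the early eye field and so reaches neural retina as well as retinal pigment epithelium (RPE). Both libraries therefore carried the floxed alleles, and the Cre transgene was present in the mutant alone. With 1 library per genotype no test between genotypes was possible, and all intervals given below cover counting error only.

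The visual cycle returns the spent chromophore of the photoreceptors to its light-sensitive form. Retinol enters the RPE through the receptor STRA6, is esterified by LRAT, isomerized by RPE65 and oxidized by retinol dehydrogenases such as RDH5, with CRALBP, the product of Rlbp1, carrying the cis-retinoids in between. RGR is an opsin of the RPE that binds retinal, while RDH10 and RDH11 are retinol dehydrogenases found in many tissues, RDH10 also supplying retinaldehyde for retinoic acid synthesis in the embryo. Photoreceptor outer segments, where the chromophore is used, form after birth in the mouse, and e15.5 therefore precedes the working cycle.

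The stretches of 250 bases before the annotated start of 4 of these genes are shown as examples of where and whether the genes were detected: Rlbp1 and Rdh5 were led by the RPE, Rgr was led by photoreceptor precursors, and Rpe65 was not detected in the RPE. The sequences were taken from RefSeq on GRCm38.p6 and run 5′ to 3′ on the gene's strand, and capitals mark matches to the searched motifs on either strand. The last 21 bases for Rlbp1 and the last 6 for Rpe65 lie in a first exon of a GENCODE M21 transcript. The Rlbp1 stretch is chr7:79387028-79387277 (minus strand), the Rdh5 stretch chr10:128919298-128919547 (minus strand), the Rgr stretch chr14:37049015-37049264 (minus strand) and the Rpe65 stretch chr3:159598931-159599180 (plus strand).
Rlbp1: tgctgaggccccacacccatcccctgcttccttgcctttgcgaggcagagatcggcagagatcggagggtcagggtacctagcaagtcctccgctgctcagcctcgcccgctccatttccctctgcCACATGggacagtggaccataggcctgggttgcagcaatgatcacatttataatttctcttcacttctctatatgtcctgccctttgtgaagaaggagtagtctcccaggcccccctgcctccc
Rdh5: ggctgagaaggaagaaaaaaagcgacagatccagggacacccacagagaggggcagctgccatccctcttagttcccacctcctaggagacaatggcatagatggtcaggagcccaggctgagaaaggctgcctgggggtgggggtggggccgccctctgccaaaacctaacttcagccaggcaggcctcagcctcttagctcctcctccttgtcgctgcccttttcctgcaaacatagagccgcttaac
Rgr: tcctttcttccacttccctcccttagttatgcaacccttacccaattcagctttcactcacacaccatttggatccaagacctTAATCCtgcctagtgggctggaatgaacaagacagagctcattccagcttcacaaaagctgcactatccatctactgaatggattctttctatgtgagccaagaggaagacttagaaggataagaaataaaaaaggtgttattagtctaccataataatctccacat
Rpe65: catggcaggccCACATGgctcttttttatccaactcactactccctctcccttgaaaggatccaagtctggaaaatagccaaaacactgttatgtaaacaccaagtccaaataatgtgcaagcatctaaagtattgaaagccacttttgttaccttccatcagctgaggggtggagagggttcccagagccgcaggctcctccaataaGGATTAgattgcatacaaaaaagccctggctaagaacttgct

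The motifs searched were CTGGCAC and CTGGTAC for MYRF, AACAAT and AACAAAG for SOX factors, TAATCC for OTX factors, and CATGTG and CACGTG for MITF, none of which contains another. The upstream sequence of 7 of the 8 genes was at hand, in 11 stretches because Stra6 and Rdh11 have several starts. The Rlbp1 stretch held CATGTG on the strand opposite to the gene's, beginning 124 bases before the start, a motif present in 12.3% of the 32851 promoters of the same length. The Rgr stretch held TAATCC 167 bases before the start, and the Rpe65 stretch held the same motif at 42 bases and CATGTG at 239 bases, with TAATCC present in 6.25% of all promoters. At its start farther into the gene, Rdh11 held CACGTG at 182 and 230 bases before it, against 6.02% of all promoters. The Rdh5, Lrat and Stra6 stretches held none of the letters searched. Neither MYRF motif, found in 4.19% and 1.83% of promoters, and neither SOX motif, found in 9.42% and 5.03%, was in any stretch of these genes. These matches describe letters in the sequence and say nothing of binding.

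The count tables held 13017 control and 13880 mutant barcodes, with 132436812 and 135678970 unique molecular identifiers (UMIs, each marking 1 captured transcript) in all. After filtering, 11573 control and 12669 mutant cells were kept, and 59 barcode sequences occurred among the kept cells of both libraries. Clustering gave 34 clusters, 30 of which were assigned to 14 classes from marker genes, and 16.5% of control and 15.7% of mutant cells were left without a class. The pooled embryos differed in sex: Y-linked UMIs were present in 0.0259% of control and 41.85% of mutant cells, and Xist UMIs in 71.7% and 27.6%. The RPE-like class was 1 cluster of 380 control cells (3.28% of kept cells, median 7378 UMIs) and 220 mutant cells (1.74%, median 4473 UMIs). All 9 RPE markers, among them the melanosome genes Pmel and Tyrp1, were detected in it in both libraries, and Pax3, which marks melanocytes of neural crest origin, had 0 control UMIs and 1 mutant UMI. Other markers on the melanocyte list were present: Kit had 138 control and 80 mutant UMIs, Ednrb 23 and 30, and Sox10 44 and 2. The 5 melanocyte markers summed to 1156 and 1007 CPM (UMIs for each 1000000 UMIs of the class), against 2893 and 3166 CPM in the melanocyte-like class. Myrf itself gave 293 UMIs or 74.35 CPM in control RPE-like cells and 57 UMIs or 26.6 CPM in mutant cells, a mutant to control ratio of 0.358 (95% interval 0.265 to 0.477), and its reads in mutant cells were not placed relative to the floxed exons.

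The first question was where in the eye cup each gene was expressed. Rlbp1, which encodes the retinaldehyde carrier CRALBP, had the largest share of its UMIs in RPE-like cells among these genes. It stood at 328 CPM (310.5 to 346.5) in control and 203 CPM (185 to 223) in mutant RPE-like cells, and at 4.07 CPM or less in every other named class of both libraries. RPE-like cells held 91.0% of the 1421 control and 70.1% of the 621 mutant Rlbp1 UMIs of kept cells, and the level there was 300.2-fold (250.2 to 363) and 135-fold (113 to 161) that of all other cells. Retinal progenitor-like cells held a low level, 2.12 CPM on 55 control UMIs and 2.61 CPM on 94 mutant UMIs, whereas erythroid-like cells, which should lack the gene and show the level of free RNA, held 3 UMIs and 0. Below the RPE, the interval of each class overlapped that of its neighbour in rank, but the progenitor-like interval lay wholly above those of the mesenchyme-like, ganglion cell-like, neurogenic progenitor-like and erythroid-like classes in both libraries. The cells left without a class had a higher summed level than these, 5.34 CPM on 30 control UMIs and 10.82 CPM on 65 mutant UMIs.

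Rdh5, which oxidizes cis-retinol, followed a like pattern at a shallower slope. Its level was 206 CPM (192 to 220.5) in control and 155 CPM (139 to 173) in mutant RPE-like cells, 55.7-fold and 48.3-fold the level of all other cells. The RPE-like class held 65.2% of 1244 control UMIs and 45.5% of 729 mutant UMIs. The next classes in the control were Schwann precursor-like at 9.91 CPM, on 6 UMIs, and muscle-like at 8.175 CPM, on 31 UMIs, with overlapping intervals. Rdh5 overlaps Bloc1s1 on the same strand in GENCODE M21, so that reads of the pair may not be fully separated.

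Stra6, the receptor through which retinol is taken up from its carrier RBP4, was also led by the RPE. It reached 285 CPM (268 to 302) in control and 275 CPM (253 to 298) in mutant RPE-like cells, 22.2-fold (20.5 to 24.0) and 27.4-fold (24.8 to 30.3) the level elsewhere. A second tier was formed by periocular mesenchyme-like cells at 24.0 and 21.9 CPM, retinal ganglion cell-like cells at 17.0 and 13.96 CPM and photoreceptor precursor-like cells at 15.3 and 16.3 CPM. Because the mesenchyme is abundant it held 1069 control UMIs, nearly as many as the 1121 of the RPE-like class. Stra6 overlaps Ccdc33 on the opposite strand and Gm16131 on its own.

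Rdh10, which makes retinaldehyde from all-trans-retinol, was highest in the RPE but widely expressed. Its level was 246 CPM (231 to 262) in control and 97.2 CPM (84.5 to 111) in mutant RPE-like cells, 11.7-fold and 4.97-fold that of all other cells. Surface epithelium-like cells followed at 45.4 and 32.25 CPM, apart from the next class in the control but not in the mutant. Retinal ganglion cell-like, retinal progenitor-like and periocular mesenchyme-like cells lay between 20.1 and 29.2 CPM in both libraries. The RPE-like class held 28.3% of 3427 control UMIs and 7.92% of 2626 mutant UMIs, a share that falls with the number of RPE-like cells as well as with the level in them. With a mitochondrial limit of 5%, which kept fewer RPE-like cells, these shares were 12.1% and 2.80%.

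Rdh11, a retinol dehydrogenase of broad distribution, did not stand out in the RPE. Its RPE-like level was 18.5 CPM (14.5 to 23.3) in control and 21.04 CPM (15.3 to 28.15) in mutant cells, 1.08-fold (0.840 to 1.36) and 1.06-fold (0.770 to 1.42) that of all other cells. The highest class was neurogenic progenitor-like, at 27.4 and 28.0 CPM, and its interval overlapped that of the next class in both libraries. Periocular mesenchyme-like cells at 14.3 and 15.6 CPM, muscle-like cells at 10.8 and 10.7 CPM and immune-like cells at 8.96 and 5.39 CPM lay wholly below it, and erythroid-like cells were far lower, with 6 and 2 UMIs.

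Rgr was not led by the RPE at this age. Photoreceptor precursor-like cells held 55 of 104 control UMIs (20.05 CPM, 15.1 to 26.1) and 52 of 83 mutant UMIs (13.65 CPM, 10.2 to 17.9), spread over 48 and 45 cells. RPE-like cells held 17 UMIs in 12 control cells (4.31 CPM, 2.51 to 6.91) and none in mutant cells, so that the photoreceptor precursor-like class stood apart from all others in both libraries. Muscle-like cells held 12 and 8 UMIs, with an interval that overlapped that of control RPE-like cells. Lrat and Rpe65 were at the limit of detection. Lrat gave 9 UMIs among all control and 8 among all mutant cells, 2 and 0 of them in RPE-like cells. Rpe65, the isomerase, gave 0 UMIs in all control cells and 1 UMI, from a mesenchyme-like cell, among the mutant cells. With 3940899 control and 2139280 mutant UMIs in the RPE-like class, a count of 0 allows up to 0.761 and 1.402 CPM, so Rpe65 was not detectable at this depth.

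**Figure D1:**
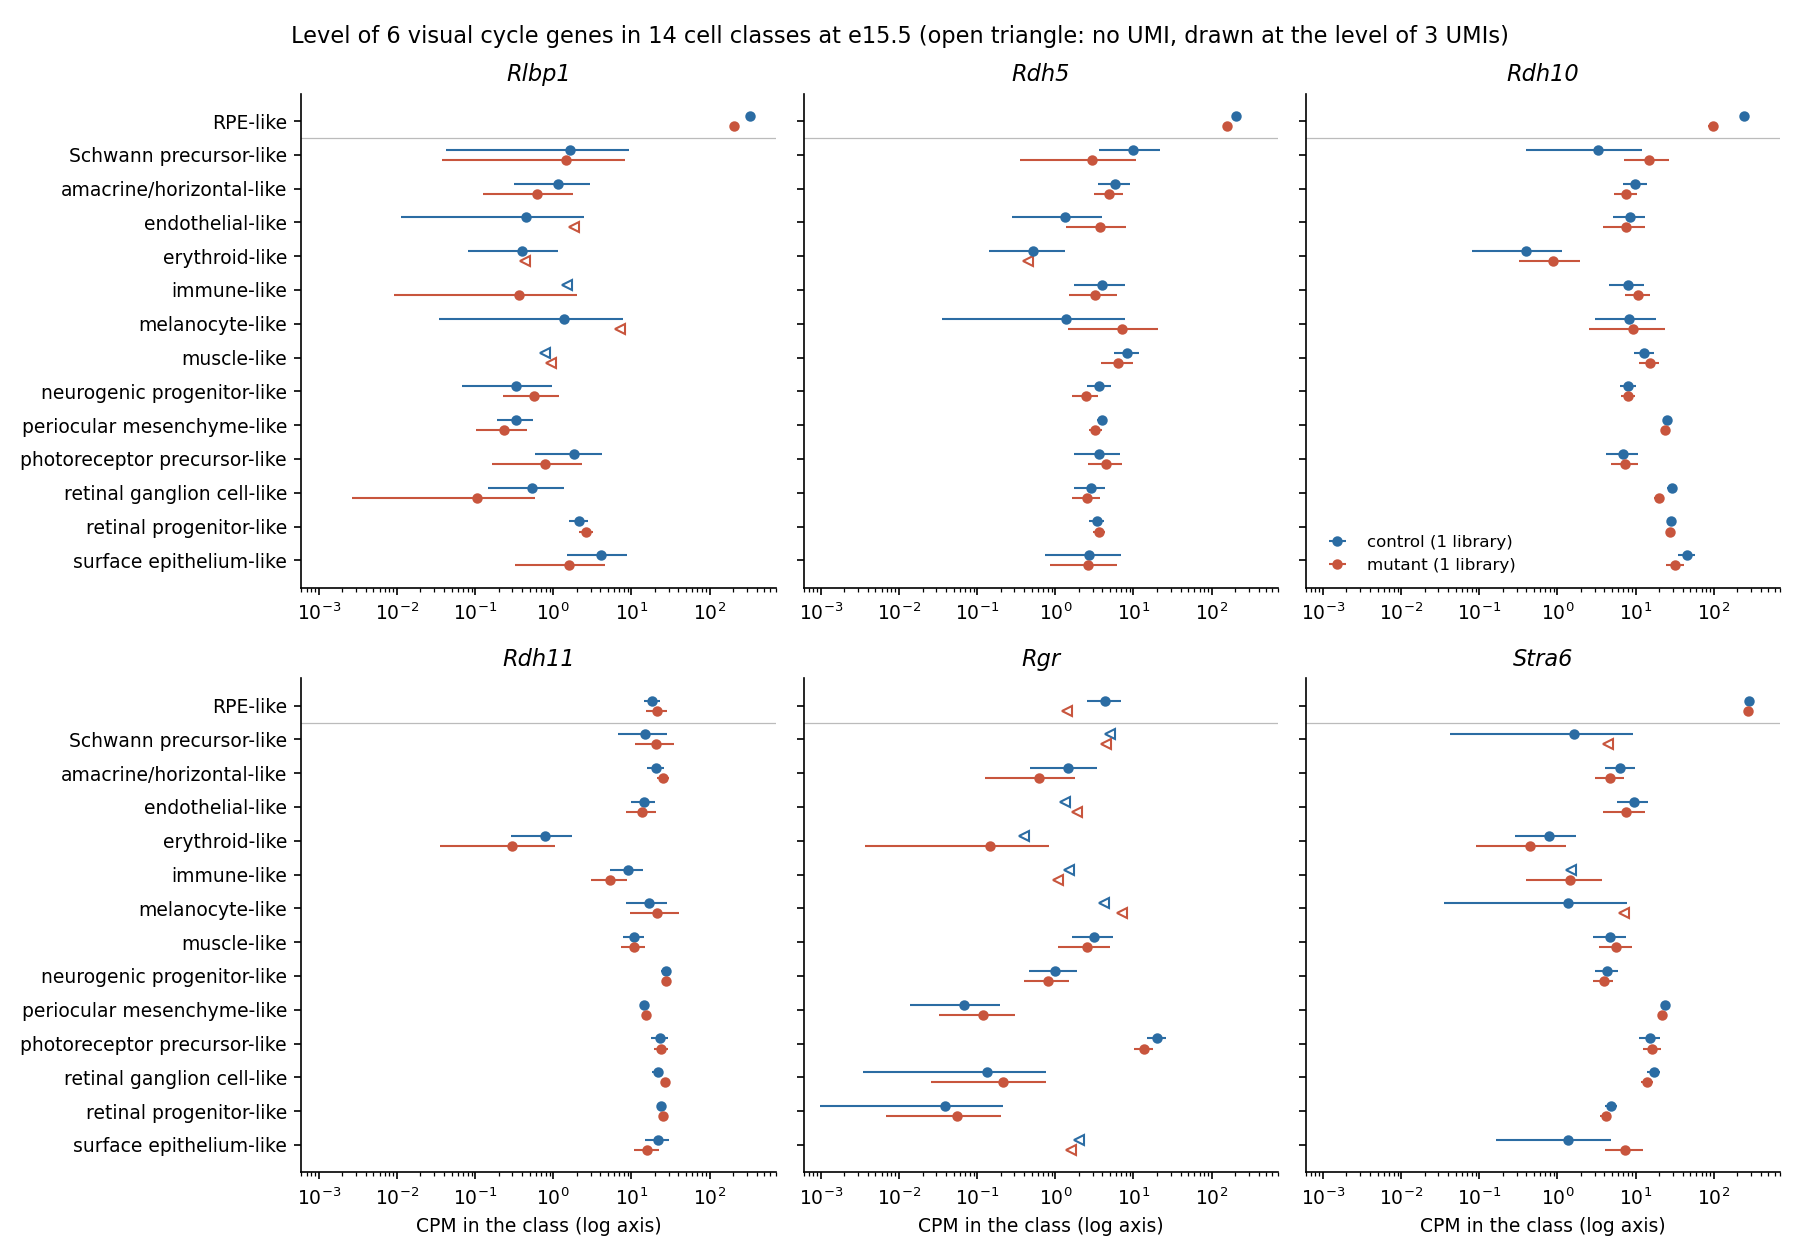
Level of 6 visual cycle genes (CPM in the class, log axis) in each of 14 cell classes, control in blue and mutant in red, 1 library each; points carry exact 95% Poisson intervals and open triangles mark classes without a UMI, drawn at the level of 3 UMIs. Rlbp1, Rdh5, Rdh10 and Stra6 lie farthest right in the RPE-like row, Rdh11 has no row apart at the top and is lowest in erythroid-like cells, and Rgr lies farthest right in the photoreceptor precursor-like row.

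Across the 28 profiles (14 classes in 2 libraries), the likeness of 2 genes was described by Pearson's r of log2(CPM + 10), where profiles of 1 library share its depth and the RPE-like profiles weigh heavily. Rlbp1 and Rdh5 were alike at r = 0.972, and each was less like Stra6 (0.8925 and 0.885) and Rdh10 (0.812 and 0.773). Rdh11 reached at most 0.354 with another of these genes and Rgr at most 0.222. Among 14045 other genes, the profiles most like Rlbp1 were those of Gsx2, Slc16a8 and Slc4a5 (0.995 to 0.994), and those most like Rdh5 were Guca1b, Slc38a8 and Gsx2 (0.979 to 0.9775). Stra6 was most like Slc1a1, Slc16a9 and Pcp4 (0.959 to 0.9325), and Rdh10 was most like Ociad2, Trpm3 and Steap2 (0.891 to 0.867). Rdh11 was most like Ints13, Mphosph8 and Ift43 (0.946 to 0.940), and Rgr was most like St6galnac5, Grm4 and Lrtm2 (0.945 to 0.9415).

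The second question was whether these levels differed between mutant and control RPE-like cells. Rdh10, Rlbp1 and Rdh5 were lower in the mutant library, Stra6 and Rdh11 were not separable from 1, and Rgr was seen in the control alone. Rdh10 gave 970 control and 208 mutant UMIs, 246 against 97.2 CPM, a ratio of 0.395 (0.338 to 0.459). Rlbp1 gave 1293 and 435 UMIs, 328 against 203 CPM, a ratio of 0.620 (0.555 to 0.691). Rdh5 gave 811 and 332 UMIs, 206 against 155 CPM, a ratio of 0.754 (0.662 to 0.858). For these 3 genes the counting intervals of the libraries did not overlap. The direction of Rdh5 did not hold when each cell was thinned to 2000 UMIs and shallower cells were left out. Its log2 ratio was then 0.074 against -0.41 over all UMIs, on 84 control and 48 mutant UMIs (0.328 and 0.345 for each cell). With cells thinned to 1000 UMIs the direction did hold, at 65 and 20 UMIs (0.211 and 0.112 for each cell).

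Stra6 gave 1121 and 588 UMIs, with levels of 285 and 275 CPM whose intervals overlapped, at a ratio of 0.966 (0.873 to 1.07). Rdh11 gave 73 and 45 UMIs at a ratio of 1.14 (0.765 to 1.67), an interval too wide to tell a fall from a rise. Both values depended on which cells were used: with a mitochondrial limit of 5% the log2 ratio was -0.49 for Stra6 and -0.44 for Rdh11, and with cells thinned to 2000 UMIs it was -0.50 for Stra6, against -0.0495 and 0.18 over all RPE-like cells. Rgr, at 17 and 0 UMIs, was at least 3.08-fold lower in the mutant when its 0 was set to 3 UMIs, a bound that leaves out the counting error of the control. With that error the ratio reached up to 0.446, and the 17 UMIs were under the 20 asked of the other ratios. Lrat, at 2 and 0 UMIs, and Rpe65, at 0 in both, gave no ratio.

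Counted over the genes with at least 20 UMIs, 5 of the 8 genes entered the comparison. Of these 5, 2 (Rlbp1 and Rdh10) were at least 1.5-fold lower in the mutant, against 7.55% of the 11152 genes measured in RPE-like cells, and 0 were at least 1.5-fold higher, against 5.67%. Intervals wholly below 1 were found for 3 of 5, against 7.95% of all genes, and 0 lay wholly above 1, against 6.39%. Deeper counts narrow the intervals, and among the 6805 genes with at least 100 UMIs the percentages were 2.79% for 1.5-fold lower and 10.3% for an interval below 1. The log2 ratios of the 5 visual cycle genes had a median of -0.41, beside -0.045 for all 11152 genes.

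Some features of the 2 libraries moved with these ratios, and their part in them was not tested. Periocular mesenchyme markers, 8 of 8 detected in both libraries, summed to 329 CPM in control and 832 CPM in mutant RPE-like cells, against 12630 and 16750 CPM in the mesenchyme-like class. Retinal progenitor markers, 6 of 6 detected, summed to 678 and 957 CPM, against 4833 and 4646 CPM in the progenitor-like class. Erythroid markers moved the other way, with 5 of 6 detected and 7968 CPM in control and 4 of 6 and 4220 CPM in mutant RPE-like cells. Ciliary margin markers, 6 of 6 detected in both libraries, summed to 1134 and 1018 CPM, and no class was named from them for comparison. The 9 RPE markers summed to 13800 and 12340 CPM. As an alternative, RPE-like cells with a Pax3 UMI, at least 2 progenitor markers or at least 2 mesenchyme markers were left out. Erythroid markers were not used for this. With the remaining 177 control and 88 mutant cells, the log2 ratio was -0.59 for Rlbp1, -0.50 for Rdh5 and -2.56 for Rdh10, against -0.69, -0.41 and -1.34 over all cells. Among the 196 control and 43 mutant cells that had Xist but lacked Y-linked UMIs, it was -0.99, -1.22 and -2.44 in the same order, and -0.06 for Stra6.

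**Figure D2:**
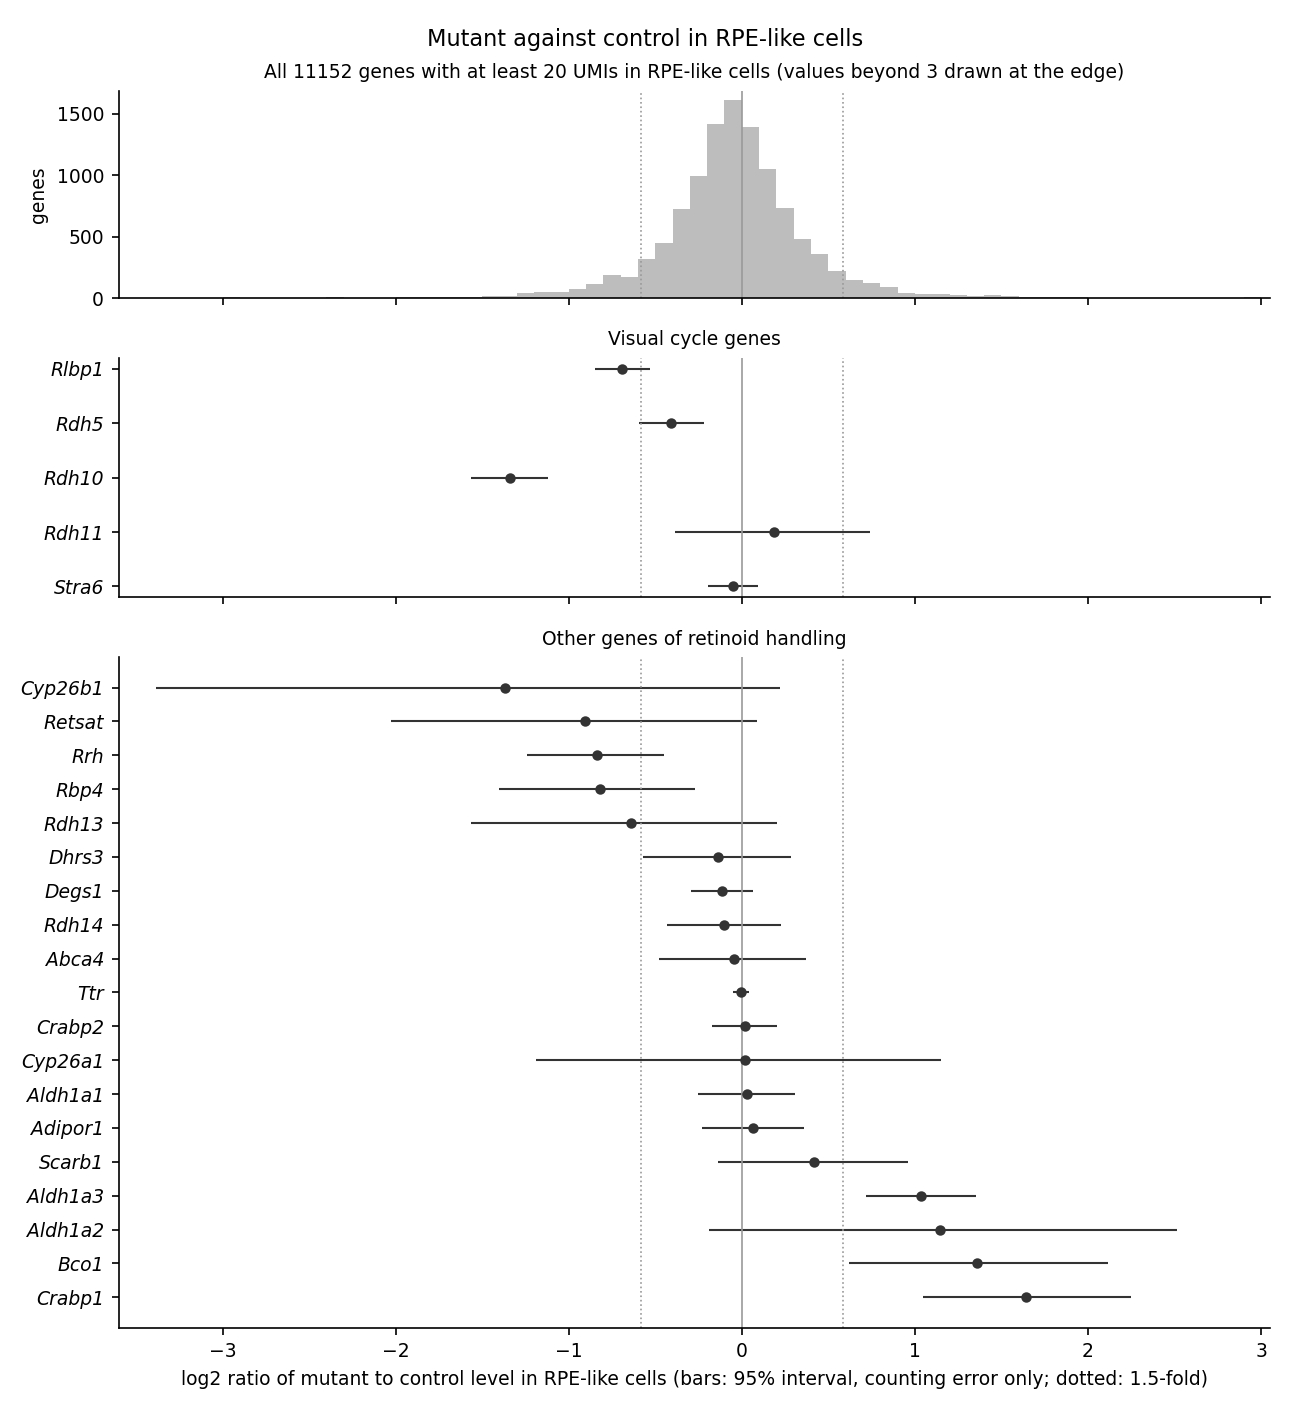
Log2 ratio of mutant to control level in RPE-like cells (x axis), for all 11152 genes with at least 20 UMIs as a histogram of gene counts (top), for the 5 visual cycle genes with at least 20 UMIs (middle) and for 19 other genes of retinoid handling (bottom); bars are 95% intervals and dotted lines mark 1.5-fold. Rdh10, Rlbp1 and Rdh5 lie left of 0 with their whole interval, and the other retinoid genes spread to both sides of 0.

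RPE-like cells were then divided by depth, because the mutant cells were shallower. Above 10000 UMIs (173 control and 93 mutant cells), the ratio was 0.647 (0.573 to 0.729) for Rlbp1, 0.7745 (0.673 to 0.890) for Rdh5, 0.438 (0.372 to 0.514) for Rdh10 and 1.02 (0.917 to 1.14) for Stra6. Between 2000 and 10000 UMIs (83 and 46 cells), the values were 0.373 (0.254 to 0.534), 0.676 (0.444 to 1.01), 0.199 (0.106 to 0.345) and 0.574 (0.395 to 0.818). Stra6 was therefore lower in the mutant in cells of middle depth and not in the deepest cells, which hold most of the UMIs. Below 2000 UMIs (124 and 81 cells), Rdh10 was again lower, at 29 against 3 UMIs and a ratio of 0.161 (0.0313 to 0.518), while the interval of Rlbp1, 0.558 to 1.51, covered 1. So did those of Stra6 (0.976, 0.5455 to 1.71) and Rdh5 (0.559, 0.230 to 1.24). Rdh10 was thus lower in the mutant in every range of depth.

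**Figure D3:**
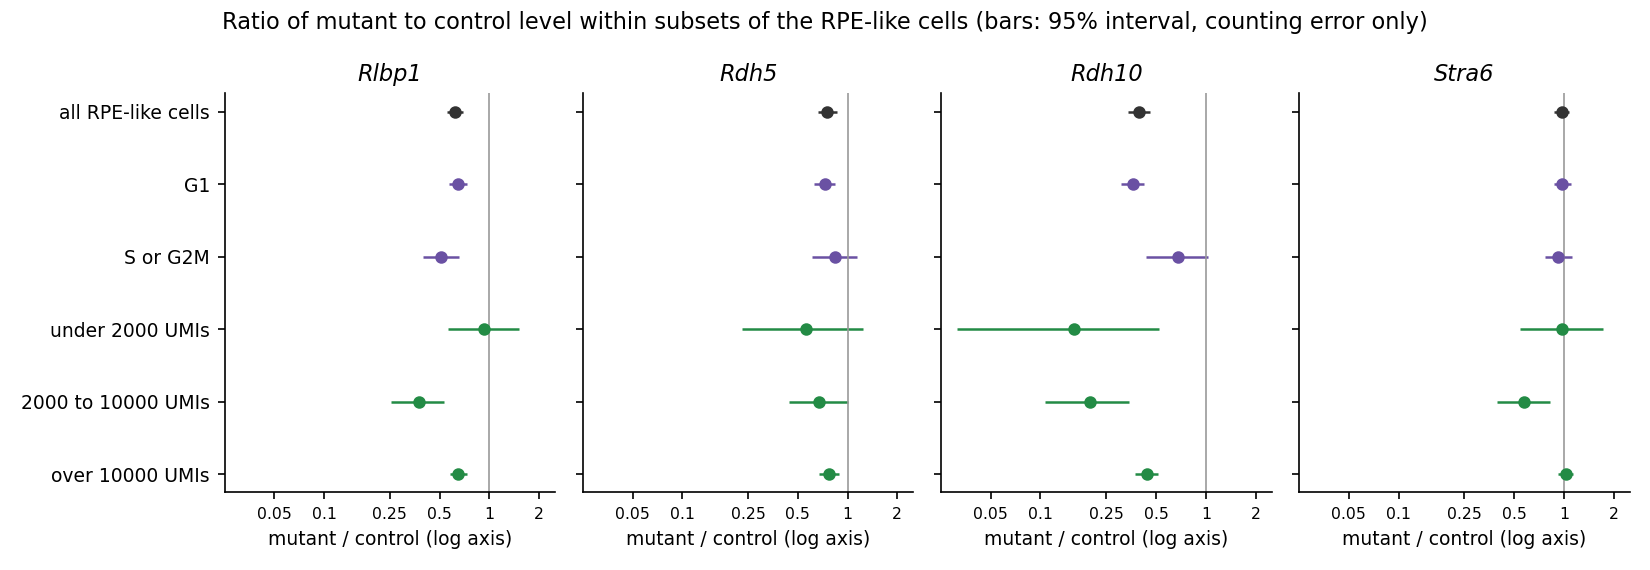
Mutant to control ratio (log axis) with its 95% interval for Rlbp1, Rdh5, Rdh10 and Stra6 in all RPE-like cells (black), by called cell cycle phase (purple) and by UMIs per cell (green). The Rdh10 points lie left of 1 throughout, from 0.161 to 0.6785, and the Stra6 interval covers 1 except at 2000 to 10000 UMIs.

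To compare the share of cells in which a gene was seen, each RPE-like cell was thinned to 2000 UMIs, which left out 124 control and 81 mutant cells and kept 256 and 139. Rlbp1 was then detected in 47.7% (41.4 to 54.0) of control and 29.5% (22.1 to 37.8) of mutant cells, and Rdh10 in 26.2% (20.9 to 32.0) and 9.35% (5.07 to 15.46). Stra6 was detected in 45.7% (39.5 to 52.0) and 33.1% (25.35 to 41.6), and Rdh5 in 25.4% (20.2 to 31.2) and 21.6% (15.1 to 29.35). The intervals overlapped for these 2 genes. With cells thinned to 1000 UMIs, the intervals of Rlbp1 and Rdh10 overlapped between libraries too. The shares were then 31.2% of control and 20.1% of mutant cells for Rlbp1, and 15.9% and 8.38% for Rdh10. Without thinning the shares were 67.6% and 52.7% for Rlbp1, 38.2% and 26.8% for Rdh10, 66.8% and 55.45% for Stra6 and 50.8% and 38.6% for Rdh5. Rdh11 was seen in 4.30% and 2.88% of cells thinned to 2000 UMIs and Rgr in 0.391% and 0 of 139, which allows up to 2.16%. Rpe65 and Lrat were seen in none of the thinned cells, while 2 control cells had a UMI of Lrat before thinning. These limits concern cells with a UMI at 2000 UMIs per cell, not cells that express the gene. In erythroid-like cells thinned alike (457 and 406 cells, median 16721 and 16636 UMIs before thinning), the only UMI of the 8 genes was 1 of Rdh10 in 1 control cell, or 0.219%. Erythroid markers took 882400 and 900200 CPM of that class, so thinning left few other UMIs and this count cannot show the level of free RNA. Without thinning, Rdh10 was seen in 0.619% and 1.41% of erythroid-like cells and Rdh11 in 1.24% and 0.468%.

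Cells in which several of these genes were seen together were rarer in the mutant library. At least 1 of the 8 genes was detected in 75.4% (69.6 to 80.5) of control and 66.9% (58.4 to 74.65) of mutant thinned RPE-like cells. At least 2 were detected in 41.0% (34.9 to 47.3) and 24.5% (17.6 to 32.5), and at least 3 in 23.4% (18.4 to 29.1) and 5.04% (2.05 to 10.1). In the control 21 of 256 cells had 4 or more, and in the mutant 0 of 139 had, which allows up to 2.16%. Rlbp1 and Rdh10 were found together in 50 control cells, where the product of their separate shares gives 31.9, and in 4 mutant cells, where it gives 3.835. For Rlbp1 and Stra6 the counts were 65 (55.8 from the shares) and 15 (13.6), and for Rdh5 and Rdh10 they were 39 (17.0) and 3 (2.81). In the control all 6 pairs of Rlbp1, Rdh5, Rdh10 and Stra6 were above the product of their shares, and in the mutant 4 were above and 2 below, Rlbp1 and Rdh5 at 8 (8.85) and Rdh5 and Stra6 at 7 (9.93). Within the class the genes were unevenly spread over cells: the 5 richest control cells held 15.8% of the Rdh10 UMIs, 14.2% of the Rdh5 UMIs, 7.97% of the Rlbp1 UMIs and 5.98% of the Stra6 UMIs, and the median control cell had 2 UMIs of Rlbp1, 2 of Stra6, 1 of Rdh5 and 0 of Rdh10.

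**Figure D4:**
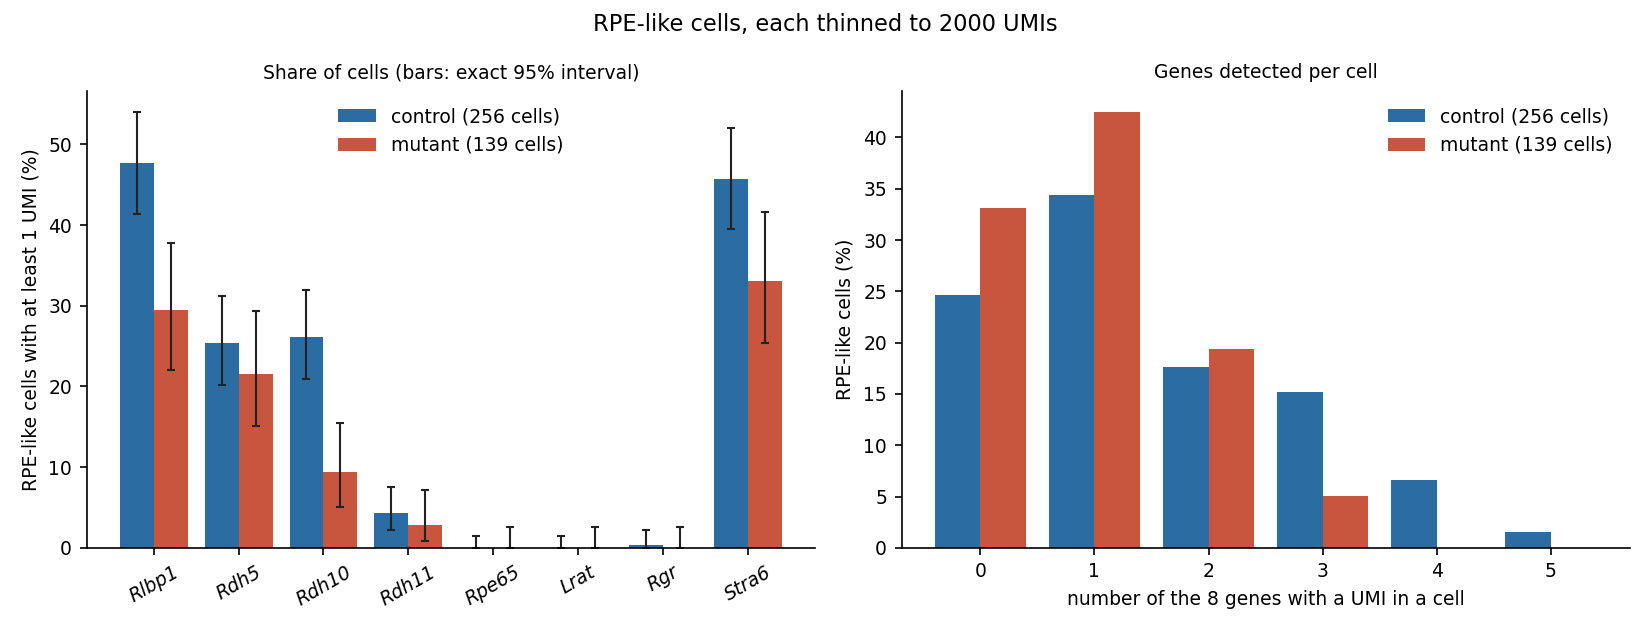
Left, share of RPE-like cells (percent) with at least 1 UMI of each gene after thinning to 2000 UMIs, with exact 95% intervals; right, share of the same cells (percent) by how many of the 8 genes had a UMI, control (256 cells) in blue and mutant (139 cells) in red. At this depth Rlbp1 and Rdh10 differ beyond their intervals, and cells with 3 or more genes make up 23.4% of control and 5.04% of mutant cells. With cells thinned to 1000 UMIs, not drawn, the intervals of both genes overlap between libraries.

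Cell cycle phase was called from expression lists that hold none of these genes, and levels of Rdh10, Rdh5, Rlbp1 and Stra6 differed by phase within each library. Of the RPE-like cells, 114 of 380 control (25.4 to 34.9%) and 75 of 220 mutant cells (27.85 to 40.8%) were called S or G2M. In the control, Rdh10 stood at 348 CPM in 266 cells called G1 and at 62.6 CPM in 114 cells called S or G2M, a ratio of 0.180 (0.143 to 0.2245). Rdh5 stood at 265 and 98.2 CPM, a ratio of 0.370 (0.306 to 0.445), and Rlbp1 at 385 and 226 CPM, a ratio of 0.586 (0.515 to 0.666). These 3 were at least 1.5-fold lower in S or G2M, against 12.1% of 10317 genes, and the ratio of Stra6 was 0.803 with an upper bound under 1, as 11.1% of genes had. Rdh11 was not lower (1.19, 0.718 to 1.945). All 17 Rgr UMIs of the control RPE-like cells were in cells called G1.

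The mutant library showed the same 3 genes lower in S or G2M, where 12.5% of 8698 genes were. The ratio was 0.339 (0.223 to 0.498) for Rdh10, 0.426 (0.317 to 0.566) for Rdh5 and 0.463 (0.3602 to 0.5885) for Rlbp1, and the Stra6 ratio of 0.760 (0.632 to 0.912) again had an upper bound under 1, as 7.54% of genes had. Between genotypes within G1, Rdh10 had a mutant to control ratio of 0.361 (0.305 to 0.425), Rlbp1 of 0.647 (0.571 to 0.732), Rdh5 of 0.727 (0.629 to 0.838) and Stra6 of 0.978 (0.867 to 1.10). Within S or G2M, Rlbp1 remained lower at 0.510 (0.396 to 0.651), while the intervals of Rdh10 (0.6785, 0.435 to 1.03) and Rdh5 (0.837, 0.608 to 1.14) covered 1. Control cells called S or G2M had a median of 6644 UMIs and those called G1 of 7428, mutant cells of 3268 and 8098, and the part of depth and of free RNA in these calls was not tested.

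**Figure D5:**
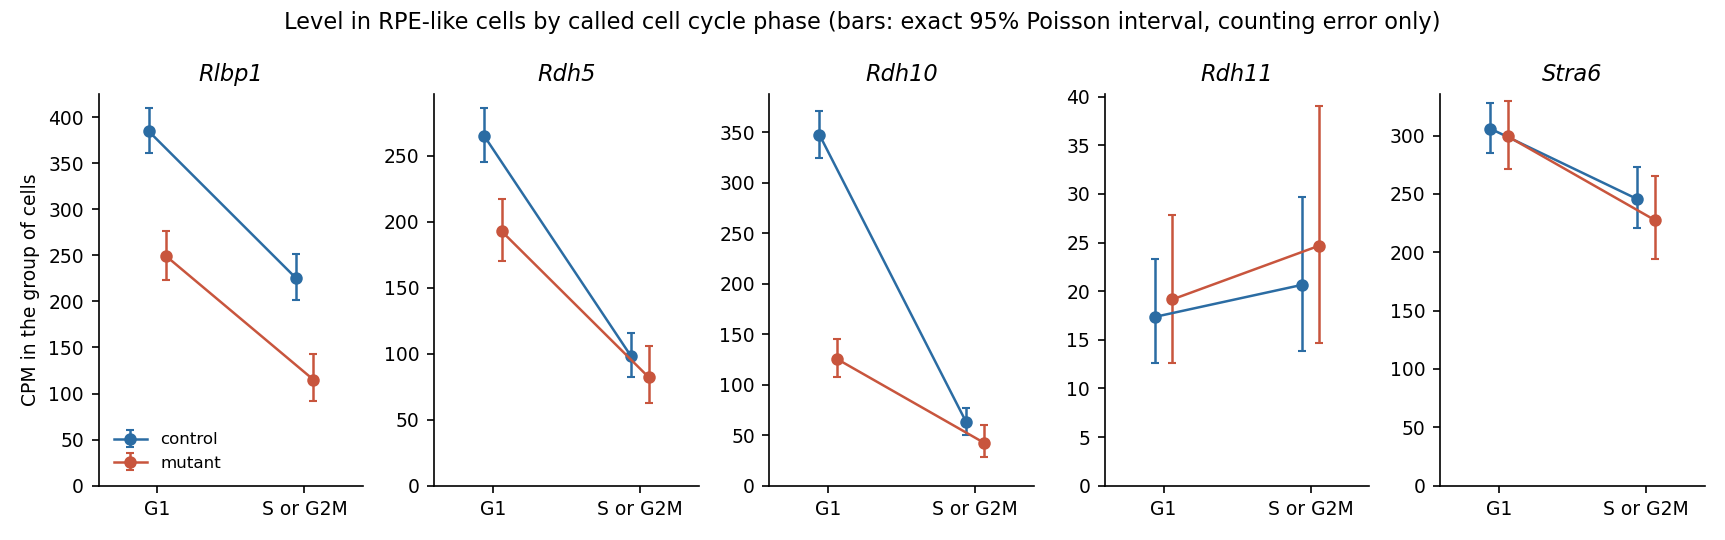
Level in RPE-like cells (CPM in the group of cells, each axis from 0) in cells called G1 and cells called S or G2M, control in blue and mutant in red, 1 library each, with exact 95% Poisson intervals. Rdh10 in the control falls from 348 to 62.6 CPM, and Rdh11 shows overlapping intervals throughout.

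In the other classes the same genes were compared wherever both libraries together held at least 20 UMIs, which gave 41 gene and class pairs in 12 classes with ratios from 0.602 to 1.39. The interval covered 1 in 39 of them. Both exceptions were in retinal ganglion cell-like cells, where the Rdh10 ratio was 0.688 (0.563 to 0.840), on 216 control UMIs and 190 from the mutant, against 7.18% of genes with an interval below 1 in that class, and Rdh11 had 161 and 257 UMIs at a ratio of 1.25 (1.02 to 1.53), against 6.38% above 1. In retinal progenitor-like cells, which the Cre transgene also reaches, Rdh10 was at 28.1 and 27.3 CPM, a ratio of 0.971 (0.881 to 1.07), and Rlbp1 at a ratio of 1.23 (0.875 to 1.753). In periocular mesenchyme-like cells Rdh10 had a ratio of 0.934 (0.852 to 1.02) and Stra6 of 0.911 (0.828 to 1.002). Rgr in photoreceptor precursor-like cells had a ratio of 0.681 (0.457 to 1.01). For Rdh10, the interval in RPE-like cells lay wholly below those in the progenitor-like, mesenchyme-like and ganglion cell-like classes, and no test of that difference over samples was possible.

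The wider machinery of retinoid handling was read from 36 further genes, of which 20 had at least 20 UMIs in RPE-like cells. Of these 20, 5 were at least 1.5-fold lower and 4 at least 1.5-fold higher in the mutant, shares of 7.55% and 5.67% over all genes, and the median log2 ratio was -0.025. Intervals excluding 1 were found for 3 in each direction, against 7.95% of all genes below 1 and 6.39% above. Among the carriers, Ttr (transthyretin, which carries the retinol and RBP4 complex in blood) stood at 2829 and 2823 CPM, a value set by few cells: the 5 richest cells held 46.2% of its control and 77.9% of its mutant UMIs, and the log2 ratio was -0.0030 with them and -1.29 without them. Rbp4, the retinol carrier of blood, had a ratio of 0.567 (0.379 to 0.830). Rrh, the RPE opsin peropsin, gave 234 and 71 UMIs at a ratio of 0.559 (0.422 to 0.732). Rrh and Rbp4 had log2 ratios below 0 under all 15 alternatives that measured them, from -2.68 to -0.52 and from -1.82 to -0.31. Higher in the mutant were Crabp1, which binds retinoic acid, at 39 and 66 UMIs and a ratio of 3.12 (2.07 to 4.76), Bco1, which cleaves carotene to retinal, at 2.57 (1.54 to 4.33), and Aldh1a3, which makes retinoic acid, at 2.05 (1.65 to 2.56). These values rested on few cells, the 5 richest mutant cells holding 66.7% of the mutant Crabp1 UMIs, 51.3% of Bco1 and 47.5% of Aldh1a3. The Aldh1a3 log2 ratio, 1.04, ranged from 0.65 to 2.41 over the 14 alternatives that measured it. The Crabp1 and Bco1 log2 ratios of 1.64 and 1.36 became 0.88 and 1.22 without the 5 richest cells, Crabp1 was at 3.38 with free RNA subtracted, and the values were 0.042 and -0.35 among cells that had Xist but lacked Y-linked UMIs, where Aldh1a3 was at 0.78. Aldh1a1 and Cyp26a1, which make and degrade retinoic acid, had ratios of 1.02 and 1.01 with intervals that covered 1. These values too rested on few cells, the 5 richest holding 72.3% of control and 60.7% of mutant Aldh1a1 UMIs, and the 20 control and 11 mutant Cyp26a1 UMIs lying in 7 and 5 cells, and with a mitochondrial limit of 5% the log2 ratios were 1.79 and -0.69. The cone opsins Opn1sw and Opn1mw had 0 UMIs in RPE-like cells of both libraries, where a count of 0 allows up to 0.761 and 1.402 CPM.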

How the data were processed

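The deposited values are UMI counts (1 value for each gene in each cell, not normalized by the authors) from 10x Genomics 3′ libraries of e15.5 eye cups, 1 library per genotype as given in the labels. Reads had been aligned to mm10. The submitters' processing notes name Cell Ranger 7.1.0 and Seurat 4.1.1, while the deposited matrix header gives software version 3.1.0. The study's other ages are not analysed here.

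Cells with under 200 genes or over 15% mitochondrial UMIs were left out, and Scrublet (scanpy 1.11.5, automatic threshold) was run on each library to remove doublets. It called 3.09% of control and 2.68% of mutant cells, under the expected 9.55% and 10.4%, so doublets probably remained, though their number was not measured. The study's stated limit of 2000 UMIs would have removed 79.1% and 80.6% of cells and was tried as an alternative. Clustering used 1898 variable genes, 30 components, 15 neighbors and Leiden resolution 1.0, with the described genes, all marker genes, and haemoglobin, mitochondrial, Xist and Y-linked genes kept out. Clusters were named from fixed marker lists, with score limits set after the data were seen. Class names were thus rebuilt here and may differ from the study's.

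UMIs were summed per class and library and given for each 1000000 UMIs of the class (CPM). Intervals are exact 95% Poisson for levels, Clopper-Pearson for shares and conditional binomial for ratios, and cover counting error only, since UMIs of 1 cell and cells of 1 pool are not independent. A count of 0 was bounded by 3 counts. Ratios were taken with at least 20 UMIs over both libraries. Levels were not compared between genes. The ratio and thinning steps were tested on simulated data. Genes named were the 8 visual cycle genes, Myrf as the check of the labels, genes of the fixed retinoid and marker lists, genes that overlap a visual cycle gene, and the 3 genes of most similar profile (at least 200 UMIs in all). The 8 genes, the lists and the motifs were chosen with earlier results of these data known. Gene positions are from GENCODE M21. Rpe65 and Lrat, under 20 UMIs, entered no ratio. Not every gene of the retinoid list is reported here by name, and the counts over the list include those that are not.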

Additional observations from a re-analysis of the deposited data

How the results depend on the processing

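The median log2 ratio of the visual cycle genes in RPE-like cells, -0.41, stayed below 0 under all 16 alternatives, from -1.11 to -0.23. It moved beyond its counting interval to -0.96 with a mitochondrial limit of 5%, -0.71 without cells over 20000 UMIs, -0.99 in cells that had Xist but lacked Y-linked UMIs, -0.73 with each cell thinned to 2000 UMIs, and -1.11 in cells of 2000 to 10000 UMIs, an alternative chosen after seeing the data. The count of genes 1.5-fold lower, 2, became 1 without doublet removal and ranged from 1 to 3, and the count higher remained 0. Rdh10 and Rlbp1 were below 0 under all 16, at -2.64 to -1.30 and -1.42 to -0.11. Rdh5 was below 0 under 15 and reversed to 0.074 after thinning to 2000 UMIs, where the cause was not tested. Thinning to 1000 UMIs, which was not among the 16, gave Rdh5 0.211 UMIs for each control cell and 0.112 for each mutant cell. Stra6 was below 0 under 14 of 16, at -0.80 to 0.074, and Rdh11 above 0 under 10 of 12, at -0.44 to 0.25. For the retinoid list, the median of -0.025 became -0.68 without cells over 2000 UMIs (4 genes measured) and -0.39 at 2000 to 10000 UMIs (11 genes). The 5 genes lower became 2 without cells over 2000 UMIs, 3 without cells that carried Pax3 or several progenitor or mesenchyme markers, 3 at 2000 to 10000 UMIs and 2 after thinning. The 4 genes higher became 1, 1 and 0 under the first 3 of these, 2 after thinning and 1 in the cells chosen by Xist, where Bco1 reversed to -0.35. The stricter settings measured fewer genes. With the 5% mitochondrial limit the share of UMIs in control and mutant RPE-like cells was 79.4% and 49.2% for Rlbp1, 43.8% and 17.8% for Rdh5, 12.1% and 2.80% for Rdh10, and 22.4% and 13.1% for Stra6. No paired analysis was possible because there was 1 library per genotype and the labels give no replicate numbers. Depth limits the statements on Rpe65, Lrat, Rgr and Rdh11.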
